A study of Homo sapiens with 16 samples.

Results

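The collagen chain genes are the genes whose symbol is COL, a type number, the letter A and a chain number. The gene table held 44 of them among 59081 genes. Of these, 37 had a mean of 10 or more counts over the 16 libraries and 7 had fewer. The members nearest that limit were COL21A1, with a mean of 10.56 counts, and COL9A3, with a mean of 9.38 counts. Of the 44 genes, 39 passed the filter on low counts and were tested. The other 5 (COL1A2, COL9A1, COL10A1, COL19A1 and COL23A1) had means of 4.81, 1.31, 1.25, 6.44 and 1.62 counts.

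The libraries were poly(A) RNA-seq libraries of U2OS, an established human osteosarcoma cell line. Confluent U2OS cells were held without serum for 48 h to promote quiescence and were treated during the last 24 h. There were 4 libraries each of cells given 10 µM harmine hydrochloride, of cells given water (its solvent), of cells given 25 µM INDY and of cells given DMSO (its solvent). Harmine is a beta-carboline alkaloid and INDY a benzothiazole derivative, and both inhibit DYRK1A, the kinase that phosphorylates LIN52 during assembly of the DREAM repressor complex. Dose and solvent differed between the compounds, and no control library was shared. Nothing in the labels tells whether libraries of one group are separate cultures. The p-values therefore reflect library-to-library spread, possibly technical.

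Each collagen is a trimer of chains that wind around each other along stretches in which glycine recurs at a fixed spacing. Fibrillar collagens (types I, II, III, V, XI, XXIV and XXVII) pack into fibrils, network collagens (IV, VIII and X) form sheets such as those of basement membranes, and FACIT collagens, the fibril-associated collagens with interrupted triple helices, sit on the surface of fibrils. Transmembrane collagens (XIII, XVII, XXIII and XXV) span the plasma membrane, and the smaller classes are the beaded filaments of type VI, the multiplexins XV and XVIII, and the anchoring fibrils of type VII. Bone is built mainly of type I collagen, and osteosarcomas are bone-forming tumours.

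Many collagen genes lie beside a partner. COL4A1 and COL4A2, the genes of the chains that make up the common basement membrane collagen, stand head to head on chromosome 13 with start sites 127 bp apart (GRCh38, GENCODE 44). COL4A3 and COL4A4 are arranged the same way on chromosome 2 with start sites 419 bp apart, and COL4A5 and COL4A6 on chromosome X with start sites 1416 bp apart. The promoter windows of COL4A1 and COL4A2, from 250 bases before to 50 bases after the start in the RefSeq table of GRCh38.p14, overlap by 226 bp. They are printed here to show that shared stretch, and those of COL11A1 and COL5A3 because these genes had the largest falls with INDY and with harmine among the chains above 1000 mean counts. Capitals mark 2 promoter elements on either strand, CCAAT (or its reverse complement ATTGG), the CCAAT box, and GGGCGG (or CCGCCC), the GC box.
COL4A1 chr13:110307108-110307407, minus strand: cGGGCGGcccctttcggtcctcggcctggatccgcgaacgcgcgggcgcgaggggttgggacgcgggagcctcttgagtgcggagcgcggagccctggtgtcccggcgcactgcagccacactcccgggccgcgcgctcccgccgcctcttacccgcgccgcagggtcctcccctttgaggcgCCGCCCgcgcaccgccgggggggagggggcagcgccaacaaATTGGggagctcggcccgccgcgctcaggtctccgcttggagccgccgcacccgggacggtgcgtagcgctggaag
COL4A2 chr13:110307034-110307333, plus strand: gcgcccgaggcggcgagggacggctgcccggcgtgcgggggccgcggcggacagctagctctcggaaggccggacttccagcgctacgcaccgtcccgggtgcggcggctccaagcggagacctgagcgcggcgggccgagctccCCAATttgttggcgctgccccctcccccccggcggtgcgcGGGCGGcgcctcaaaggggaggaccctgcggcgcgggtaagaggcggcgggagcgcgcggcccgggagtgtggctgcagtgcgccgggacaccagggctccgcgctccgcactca
COL11A1 chr1:103108473-103108772, minus strand: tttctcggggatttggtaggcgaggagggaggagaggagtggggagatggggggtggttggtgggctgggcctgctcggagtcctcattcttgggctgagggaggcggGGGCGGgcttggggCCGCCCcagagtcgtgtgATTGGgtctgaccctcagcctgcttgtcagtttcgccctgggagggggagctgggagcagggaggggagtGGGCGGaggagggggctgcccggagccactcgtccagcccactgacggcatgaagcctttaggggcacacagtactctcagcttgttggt
COL5A3 chr19:10010455-10010754, minus strand: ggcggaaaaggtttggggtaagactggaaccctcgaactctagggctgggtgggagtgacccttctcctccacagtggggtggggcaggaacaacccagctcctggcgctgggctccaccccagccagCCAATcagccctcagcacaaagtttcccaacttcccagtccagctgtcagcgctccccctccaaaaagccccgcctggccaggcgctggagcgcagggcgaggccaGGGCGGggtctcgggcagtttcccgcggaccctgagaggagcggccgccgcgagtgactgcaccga

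The COL4A1 window held 3 matches and the COL4A2 window 2, and both matches of the COL4A2 window were also in the COL4A1 window. They were the same genomic letters read on opposite strands, the CCAAT box at chr13:110307179-110307183 and the GC box at chr13:110307219-110307224. A CCAAT match was present in 31.8% of the 44 promoter windows listed for 32 of the collagen chain genes and in 34.6% of all 35116 windows, and GGGCGG in 54.5% and 45%. Over the 22199 windows of protein-coding genes alone, the shares were 34.7% for CCAAT and 56.3% for GGGCGG. The TATA box TATAAA was present in 18.2% of the collagen windows and 11.5% of all windows, and TTTGAA, a core of the cell cycle homology region that DREAM binds, in 18.2% and 15.2%. In the coding windows the shares were 9.47% for TATAAA and 12.4% for TTTGAA. None of the 4 windows printed held TATAAA or TTTGAA on either strand. These matches describe the letters only.

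The libraries held 44301910 to 65889667 estimated counts assigned to genes. Levels are given as CPM, the usual depth-scaled count, with TMM-adjusted library sizes, and levels of different genes are compared as RPKM, the CPM per kilobase of the representative (MANE Select) transcript. The 5 mesenchymal markers summed to 4619 to 4806 CPM in harmine libraries and 3210 to 3708 CPM in water libraries, which did not overlap, and to 3348 to 3743 CPM in INDY libraries and 3511 to 3759 CPM in DMSO libraries. Of these 5, VIM, CD44 and FN1 rose and THY1 fell with harmine, and VIM rose and FN1, THY1 and NT5E fell with INDY. FN1, the fibronectin gene, moved furthest with harmine (0.90 ± 0.10, edgeR adjusted p = 3.84e-07) and had -1.52 ± 0.10 with INDY (edgeR adjusted p = 1.36e-10). VIM and CD44 were at or above 384 CPM on average in every group, and RUNX2 of the osteoblast lineage averaged 21.8 to 49.5 CPM. The osteoblast markers BGLAP and SP7 were at or under 0.225 CPM, and the mesenchymal marker NT5E under 1 CPM. Summed over each list, 4 epithelial markers reached 2.39 to 4.42 CPM per library, 4 blood markers 0.0565 to 0.687 CPM, 3 endothelial markers 2.60 to 7.38 CPM and 3 cartilage markers 21.1 to 34.5 CPM. Each of these 4 sums was lower in all INDY libraries than in all DMSO libraries, at 2.39 to 2.58 against 3.38 to 3.92 CPM for epithelial, 0.0565 to 0.0803 against 0.0975 to 0.280 CPM for blood, 2.60 to 3.66 against 5.00 to 5.87 CPM for endothelial and 21.1 to 22.7 against 27.2 to 29.0 CPM for cartilage markers. In harmine libraries 3 of these sums were also lower than in all water libraries, at 3.82 to 3.97 against 4.2 to 4.42 CPM for epithelial, 4.88 to 5.86 against 6.39 to 7.38 CPM for endothelial and 31.3 to 32.2 against 33.1 to 34.5 CPM for cartilage markers, while the blood sums overlapped. The sum of 5 osteoblast markers was 66 to 70 CPM in harmine libraries and 53.3 to 59.4 CPM in water libraries, and 25.3 to 31.3 CPM in INDY libraries and 48.9 to 53.3 CPM in DMSO libraries. Its members did not move together, as RUNX2 rose (log2 fold change 0.58) while ALPL (-0.34) and SPP1 (-0.82) fell with harmine. With INDY, RUNX2 (-0.53) and ALPL (-2.29) fell and SPP1 rose (0.65). Of the endothelial markers, PECAM1 fell (-0.82) and CDH5 rose (1.27) with harmine, and VWF (-1.95) and CDH5 (-1.23) fell with INDY. Of the epithelial markers, CDH1 fell (-1.95) and EPCAM did not pass (-0.09) with harmine. With INDY EPCAM fell (-0.59) and CDH1 did not pass (-1.09). KRT5, not tested, averaged 0.141 CPM with harmine and 0.0206 CPM with water. Of the cartilage markers, ACAN fell (-0.75) and MATN3 did not pass (0.08) with harmine, and both fell with INDY (-0.37 and -0.34). The part of these shifts in the collagen results was not tested. Within the water group, replicates 1 and 4 stood apart from 2 and 3 on a principal component of all genes tested (26.6 and 34.6 against 4.3 and 3.9). Within the INDY group, replicates 1 and 3 stood apart from 2 and 4 on another (96.0 and 105.4 against 80.1 and 85.1). Where leaving out such a pair of libraries changed a collagen call, the value without it is given too.

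Types IV and VI made up most of the collagen counts in these cells. Together their 11 genes took 85% ± 0.363 of the collagen CPM in harmine libraries and 80.3% ± 1.14 in water libraries, and 82.6% ± 0.688 in INDY libraries and 82.7% ± 0.0892 in DMSO libraries (mean ± SD, n = 4 each). Per length, the highest 5 genes were COL6A2 at a mean of 316 RPKM over all libraries, COL6A1 at 293 RPKM, COL4A2 at 286 RPKM, COL6A3 at 164 RPKM and COL4A1 at 106 RPKM. The next was COL22A1 at 33.3 RPKM, and COL1A1, the main bone collagen chain, stood ninth at 22.8 RPKM. At the other end, COL1A2, its usual partner in type I collagen, had 3, 5, 8 and 3 counts in the harmine libraries, 10, 5, 8 and 2 in the water libraries, 3, 1, 3 and 0 in the INDY libraries and 10, 8, 3 and 5 in the DMSO libraries. COL1A2 was thus within a few counts of the limit of 3 that a count of 0 allows, whereas COL1A1 had 4943 to 10546 counts in the same libraries.

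**Figure D1:**
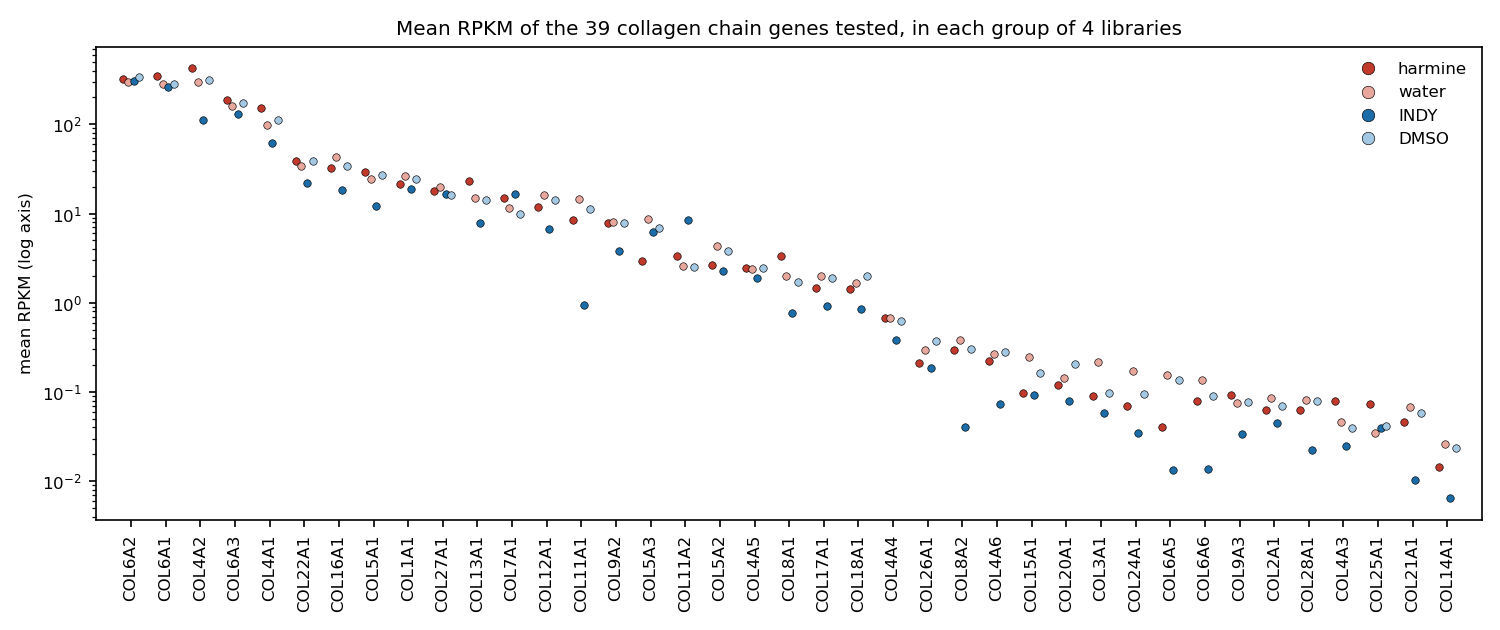
Mean RPKM (log axis) of the 39 collagen chain genes tested, in order of their mean over all libraries, with 1 point for each group of 4 libraries. The 5 genes of types IV and VI on the left lie above 60 RPKM in every group, and the INDY points of COL11A1, COL6A5 and COL8A2 lie far below their DMSO points.

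Summed over all 44 genes, collagen chains took 0.963% ± 0.00922 of the counts in harmine libraries, against 0.823% ± 0.0554 in water libraries, and 0.559% ± 0.0167 in INDY libraries, against 0.850% ± 0.0120 in DMSO libraries (mean ± SD, n = 4 each). The sum lay above that of the solvent for harmine and below it for INDY. The harmine and water ranges (0.949% to 0.970% and 0.772% to 0.875%) did not overlap, nor did those of INDY and DMSO (0.541% to 0.574% and 0.841% to 0.868%). In RNA from whole cultures, fewer cells that make a transcript and less of it per cell cannot be told apart.

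Harmine moved collagen chain genes in both directions and INDY moved them mostly down. With harmine, 10 of the 39 genes rose, 13 fell and 16 did not pass the test (edgeR quasi-likelihood test, adjusted p under 0.01 over all genes tested). Over all 20446 genes tested, 24.9% rose and 22.8% fell with harmine. The median log2 fold change was -0.24 over the 39 collagen genes and 0.02 over all genes. With INDY, 2 of the 39 rose, 30 fell and 7 did not pass, while 33.2% of all genes rose and 33.4% fell. The median log2 fold change with INDY was -0.91 over the collagen genes and -0.01 over all genes.

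Taking both compounds, 7 genes rose with harmine and fell with INDY (COL4A1, COL4A2, COL8A1, COL13A1, COL5A1, COL6A1 and COL6A3), and none did the opposite. Another 9 genes fell with both (COL1A1, COL5A2, COL6A5, COL6A6, COL11A1, COL12A1, COL16A1, COL17A1 and COL24A1), and COL7A1 and COL11A2 rose with both. A further 14 fell with INDY and did not pass the test with harmine, 4 fell with harmine and did not pass with INDY (COL3A1, COL5A3, COL15A1 and COL27A1), COL4A3 rose with harmine and did not pass with INDY, and COL2A1 and COL25A1 passed with neither compound. The same joint patterns were not counted over all genes tested, so whether these counts are unusual was not tested. Across the 39 genes the log2 fold changes with harmine and with INDY were loosely related (Pearson r = 0.44, Spearman rho = 0.40), a description only since genes are not independent replicates.

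The difference between the compounds was also tested directly, as the harmine log2 fold change minus the INDY log2 fold change at these doses, 10 µM and 25 µM. This difference was above 0 for 25 of the 39 genes and below 0 for 3 (COL5A3, COL7A1 and COL11A2), and 11 did not pass the test. Over all genes tested, 28.1% passed above 0 and 26.4% below. The median difference was 0.98 over the collagen genes and 0.00 over all genes. Leaving out the pairs of libraries that stood apart changed this call for 6 genes. It was lost for COL17A1 without water replicates 1 and 4 (edgeR adjusted p = 0.0237) or INDY replicates 1 and 3 (0.0291), for COL20A1 without INDY replicates 1 and 3 (0.0112) and for COL6A5 without INDY replicates 2 and 4 (0.0104). It was also lost for COL28A1 without water replicates 2 and 3 (edgeR adjusted p = 0.0349) or INDY replicates 1 and 3 (0.0696), and for COL9A3 without either water pair (0.0172 and 0.0309) or INDY replicates 2 and 4 (0.0686). COL27A1 gained a call below 0 without water replicates 2 and 3 (0.00354) or INDY replicates 2 and 4 (0.00145). In DESeq2 the calls of COL28A1 (adjusted p = 0.0165) and COL9A3 (0.0319) were lost, and COL27A1 passed below 0 (0.0037). Both lost calls were also lost without any of several single libraries. The COL17A1 call was lost without harmine replicate 1 (edgeR adjusted p = 0.0118), DMSO replicate 3 (0.011) or INDY replicate 1 (0.0113).

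**Figure D2:**
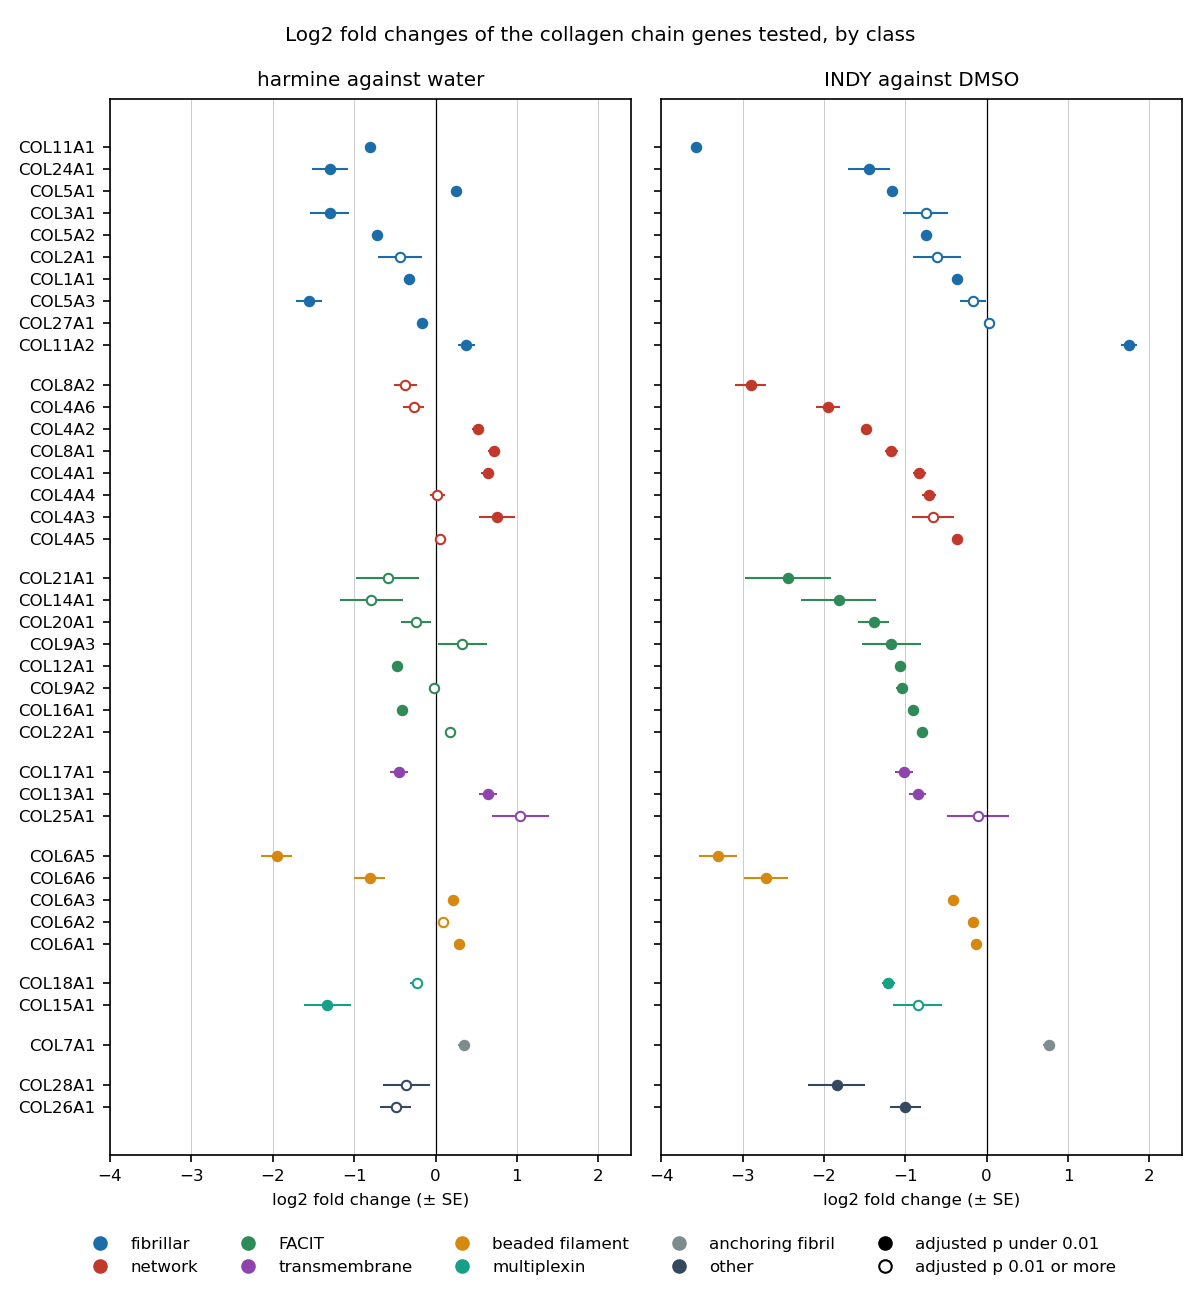
Log2 fold change ± SE of each collagen chain gene tested, harmine against water on the left and INDY against DMSO on the right, grouped by class and ordered within a class by the INDY value. Filled points have an edgeR adjusted p under 0.01, and nearly all INDY points lie left of 0 except COL7A1, COL11A2 and COL27A1.

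**Figure D3:**
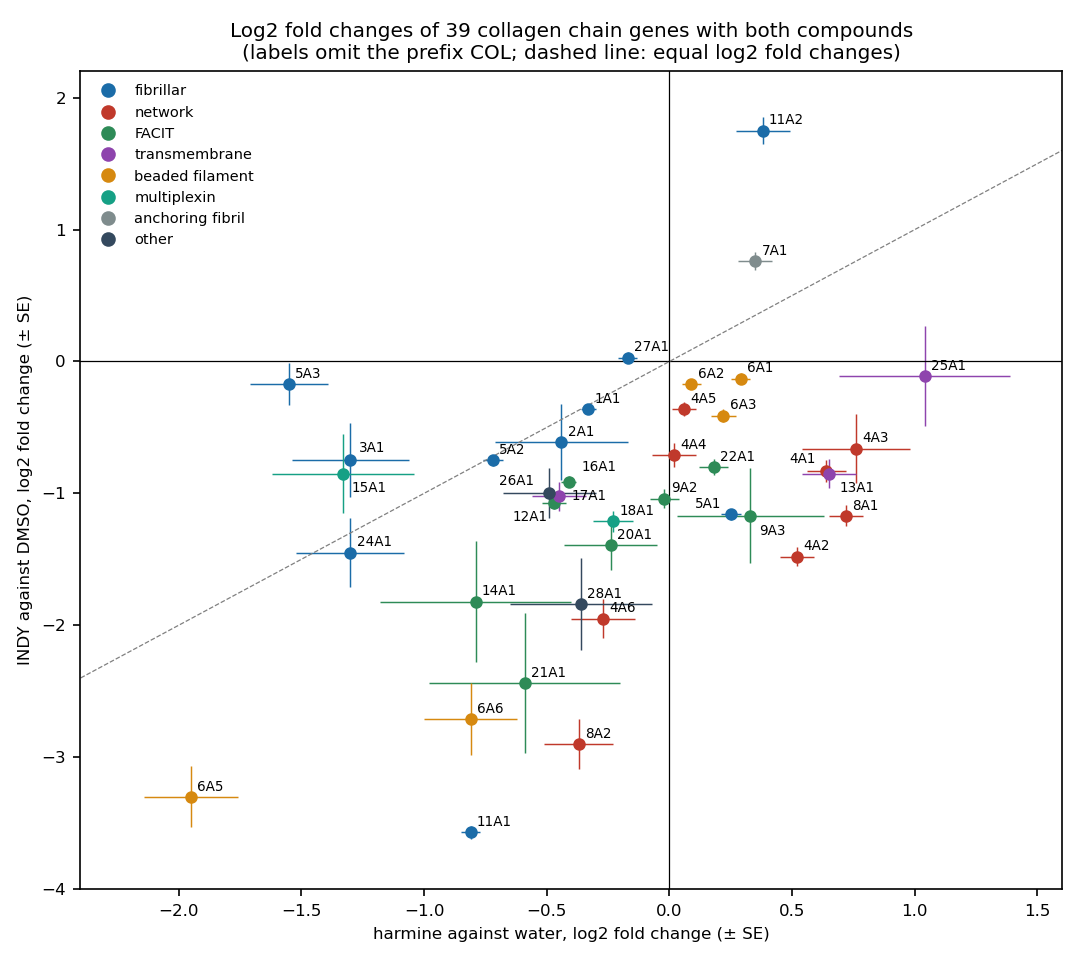
Log2 fold change ± SE with INDY against that with harmine for the 39 collagen chain genes tested, coloured by class, with the line of equal values dashed. The network genes COL4A1, COL4A2 and COL8A1 lie right of 0 for harmine and below 0 for INDY, while COL11A1, COL6A5 and COL8A2 are the lowest for INDY.

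The network genes had the largest median difference between the compounds of any class. Of the 8 tested, 4 rose and none fell with harmine (median log2 fold change 0.29), beside 24.9% and 22.8% of all genes tested. The rise of COL4A3 was lost under several alternatives. With INDY 7 of the 8 fell and none rose (median -1.0), beside 33.4% and 33.2% of all genes tested. The difference between the compounds was above 0 for all 8 network genes, with a median of 1.57. It was also above 0 for all 5 type VI genes, with a median of 0.63. Over all genes tested, 28.1% passed above 0 and 26.4% below, with a median of 0.00. Of the 5 type VI genes, 2 rose and 2 fell with harmine, beside 24.9% and 22.8% of all genes tested. All 5 fell with INDY, beside 33.4%, though the COL6A1 call (-0.13) was lost without INDY replicate 2 or 4.

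COL4A2, the α2 chain of the common type IV collagen, had 2731, 2735, 2660.2 and 2763 CPM in the harmine libraries, against 1713, 2092, 2076 and 1716.5 CPM in the water libraries. Its INDY libraries had 710.3, 815, 635 and 756 CPM, against 1955.5, 2092, 2041 and 2034 CPM in the DMSO libraries. Every harmine library was above every water library and every INDY library was below every DMSO library, and the water values fell into a lower pair (replicates 1 and 4) and a higher pair. The log2 fold change was 0.52 ± 0.07 (SE) with harmine (edgeR adjusted p = 2.63e-06) and -1.48 ± 0.07 with INDY (edgeR adjusted p = 8.54e-13).

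COL4A1, the α1 chain of the same collagen, had 1040.2, 1012, 966 and 1000.5 CPM in the harmine libraries, against 579, 727, 718 and 556 CPM in the water libraries. In the INDY libraries it had 405, 441, 348 and 438 CPM, against 702, 739, 730.5 and 724 CPM in the DMSO libraries. Neither compound's libraries overlapped those of its solvent. The change was 0.64 ± 0.08 with harmine (edgeR adjusted p = 1.08e-06) and -0.83 ± 0.08 with INDY (edgeR adjusted p = 1.61e-08) on the log2 scale. COL4A1 and COL4A2 overlap at their starts on opposite strands. The kit kept strand, but whether the counting used it is not given in the sources used here.

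The other type IV genes were far lower. COL4A5, a chain of kidney and other specialised basement membranes whose loss causes Alport syndrome, averaged 16.1 CPM with harmine and 15.5 CPM with water, and 12.5 CPM with INDY and 16 CPM with DMSO, and it fell with INDY only (log2 fold change -0.36 ± 0.05, edgeR adjusted p = 3.13e-06, against 0.06 ± 0.05 with harmine, which did not pass). Its head-to-head neighbour COL4A6, also a basement membrane chain, had 1.17, 1.62, 1.51 and 1.57 CPM in the harmine libraries, against 1.63, 1.77, 1.70 and 1.98 CPM in the water libraries. COL4A6 had 0.440, 0.622, 0.514 and 0.363 CPM in the INDY libraries, against 1.75, 1.81, 1.95 and 2.04 CPM in the DMSO libraries. All 4 INDY values of COL4A6 were under 0.63 CPM, far below DMSO, while the harmine values lay just under the water values. COL4A6 fell by 1.95 ± 0.15 on the log2 scale with INDY (edgeR adjusted p = 1.29e-09), and its harmine value of -0.27 ± 0.13 did not pass (edgeR adjusted p = 0.0972).

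COL4A3 and COL4A4, the other head-to-head pair, encode partners of COL4A5 in the kidney filter. COL4A4 fell with INDY (log2 fold change -0.71 ± 0.09, edgeR adjusted p = 1.01e-06) and had a value of 0.02 ± 0.09 with harmine. COL4A3 averaged only 20.56 counts. It rose with harmine (0.76 ± 0.22, edgeR adjusted p = 0.00575). That call was lost without water replicate 1, 2 or 3 or any harmine library (edgeR adjusted p of 0.0106 to 0.0249). It was 0.0664 without water replicates 2 and 3 together. The call was also lost in DESeq2 (adjusted p = 0.0149), without the filter on low counts (edgeR, 0.0214) and with only the 8 libraries of the comparison (edgeR, 0.0136). The INDY value of COL4A3 was -0.66 ± 0.26 (edgeR adjusted p = 0.0272).

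Type VIII collagen, a short-chain network collagen of vessel walls and of the cornea's Descemet membrane, has chains encoded by COL8A1 and COL8A2. COL8A1 had 19.1, 17.6, 18.6 and 17.8 CPM in the harmine libraries, against 10.8, 12, 11.8 and 9.57 CPM in the water libraries. In the INDY libraries it had 4.42, 4.2, 3.50 and 4.59 CPM, against 9.32, 9.43, 9.14 and 9.49 CPM in the DMSO libraries. COL8A1 thus rose with harmine (0.72 ± 0.07 on the log2 scale, edgeR adjusted p = 8.09e-08) and fell with INDY (-1.17 ± 0.08, edgeR adjusted p = 2.30e-10), with no overlap in either case.

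COL8A2 did not follow its partner with harmine. It had 1.46, 1.37, 1.39 and 1.23 CPM in the harmine libraries, against 1.59, 1.97, 1.83 and 1.67 CPM in the water libraries, and 0.220, 0.170, 0.145 and 0.214 CPM in the INDY libraries, against 1.32, 1.81, 1.13 and 1.33 CPM in the DMSO libraries. The INDY libraries held 9 to 11 counts of COL8A2 each and the DMSO libraries 62 to 91. COL8A2 fell by 2.90 ± 0.19 on the log2 scale with INDY (edgeR adjusted p = 1.12e-10), and the harmine value was -0.37 ± 0.14 (edgeR adjusted p = 0.0296). COL10A1, the collagen of hypertrophic cartilage, had at most 3 counts in any library.

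**Figure D4:**
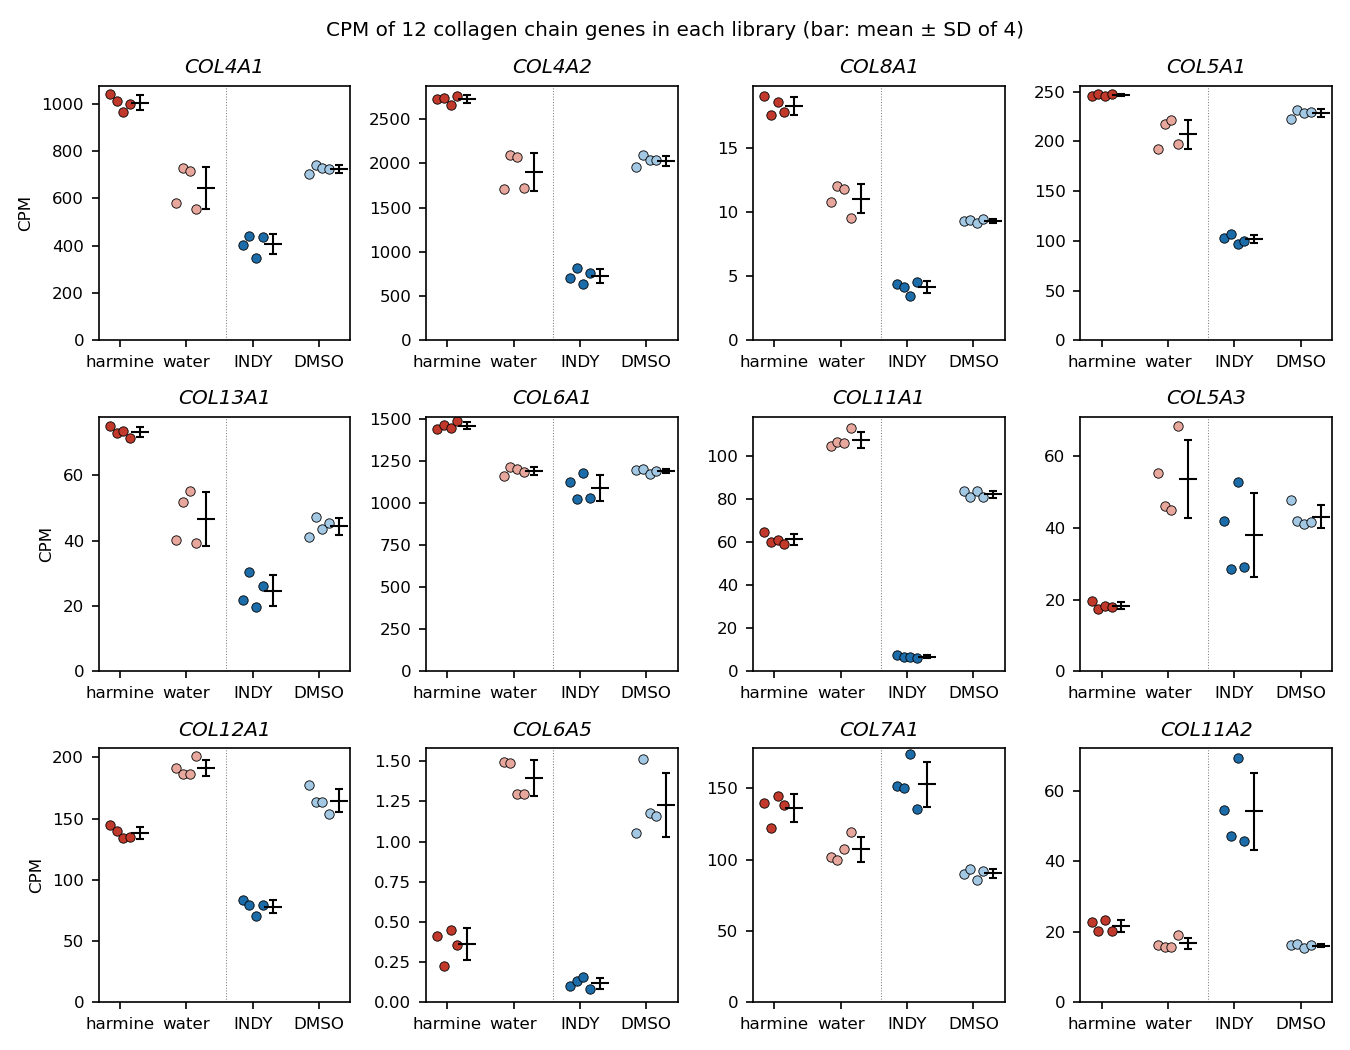
CPM of 12 collagen chain genes in each library, from left to right harmine, water, INDY and DMSO, with the mean ± SD of the 4 libraries beside the points. For COL4A1, COL4A2, COL8A1 and COL13A1 the harmine points lie above water and the INDY points below DMSO, COL11A1, COL12A1 and COL6A5 lie below their solvent with both compounds, and COL7A1 and COL11A2 lie above it with both.

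The fibrillar genes mostly fell with harmine. Of the 10 tested, 7 fell and 2 rose with harmine (median log2 fold change -0.58), beside 22.8% and 24.9% of all genes tested. With INDY 5 of the 10 fell and 1 rose (median -0.68), beside 33.4% and 33.2% of all genes tested. The difference between the compounds passed the test above 0 for 2 fibrillar genes (COL5A1 and COL11A1) and below 0 for 2 (COL5A3 and COL11A2). Over all genes tested, 28.1% passed above 0 and 26.4% below.

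The type V chains, which join type I fibrils and set their diameter, moved apart. COL5A1 had 246, 248, 246 and 248 CPM in the harmine libraries, against 192, 218, 221 and 197 CPM in the water libraries. It had 103, 107, 96.9 and 100.3 CPM in the INDY libraries, against 222, 232, 229 and 229.7 CPM in the DMSO libraries. The INDY libraries were all under 108 CPM and clear of the DMSO libraries, and the harmine libraries were all above the water libraries by a smaller margin. COL5A1 rose with harmine (log2 fold change 0.25 ± 0.04, edgeR adjusted p = 2.42e-05) and fell with INDY (-1.16 ± 0.04, edgeR adjusted p = 1.94e-14).

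COL5A2, the α2 chain of type V, fell with both compounds. It had 18.0, 18.7, 17.3 and 18.0 CPM in the harmine libraries, against 28.2, 30.3, 30.8 and 29.6 CPM in the water libraries, and 16.5, 14.9, 14.9 and 16 CPM in the INDY libraries, against 25.7, 26.3, 26.8 and 26.3 CPM in the DMSO libraries. Treated and solvent libraries were well apart for both compounds. The log2 fold changes were -0.72 ± 0.04 with harmine (edgeR adjusted p = 6.91e-11) and -0.75 ± 0.04 with INDY (edgeR adjusted p = 1.19e-11), and their difference of 0.03 ± 0.06 did not pass the test (edgeR adjusted p = 0.644).

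COL5A3, the rarer α3 chain of type V, fell with harmine. The harmine libraries had 19.6, 17.4, 18.2 and 18.1 CPM, against 55.3, 46.1, 45 and 68.3 CPM in the water libraries, a log2 fold change of -1.55 ± 0.16 (edgeR adjusted p = 1.87e-07). The INDY libraries had 42.0, 28.5, 52.9 and 29.0 CPM, against 47.8, 41.9, 41.2 and 41.5 CPM in the DMSO libraries. The harmine libraries were all under 20 CPM, clear of the lowest water library at 45 CPM, whereas the INDY libraries spread to both sides of DMSO. The INDY value was -0.17 ± 0.16 (edgeR adjusted p = 0.322). Without INDY replicates 1 and 3, which stood apart over all genes, COL5A3 passed with INDY at -0.58 (edgeR adjusted p = 0.000497). The difference between the compounds was -1.38 ± 0.23 (edgeR adjusted p = 3.19e-05).

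COL11A1, a chain of the type XI collagen that nucleates cartilage fibrils and the close relative of COL5A1, had 64.8, 60.1, 61.1 and 59.2 CPM in the harmine libraries, against 105, 106, 106 and 113 CPM in the water libraries. The INDY libraries had 7.80, 6.92, 6.70 and 6.26 CPM, against 83.9, 80.8, 83.6 and 80.9 CPM in the DMSO libraries. With either compound every treated library was below every library of its solvent, and the INDY libraries were all under 8 CPM. COL11A1 had the lowest log2 fold change of any collagen gene with INDY, -3.57 ± 0.05, a remaining fraction of 0.0841 (edgeR adjusted p = 9.36e-20), and -0.81 ± 0.04 with harmine (edgeR adjusted p = 1.17e-11). The difference between the compounds, 2.76 ± 0.07, was the largest among the 39 genes (edgeR adjusted p = 4.97e-16).

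COL11A2, the α2 chain of type XI, went the other way. It had 22.9, 20.2, 23.4 and 20.3 CPM in the harmine libraries, against 16.4, 15.8, 15.7 and 19.0 CPM in the water libraries, and 54.4, 47.2, 69.3 and 45.6 CPM in the INDY libraries, against 16.3, 16.5, 15.3 and 16.2 CPM in the DMSO libraries. The INDY libraries were all above 45 CPM, with the libraries that stood apart (1 and 3) the highest, and no DMSO library reached 17 CPM. COL11A2 rose by 1.75 ± 0.10 on the log2 scale with INDY (edgeR adjusted p = 2.28e-11) and by 0.38 ± 0.11 with harmine (edgeR adjusted p = 0.00502). The harmine call was lost without water replicate 1, 2 or 3 or without harmine replicate 1 or 3 (edgeR adjusted p of 0.0135 to 0.0255), and was 0.0970 without water replicates 2 and 3 together.

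COL1A1 had 127, 123, 124 and 127 CPM in the harmine libraries, against 154, 158, 157 and 159.7 CPM in the water libraries, and 111, 111, 121 and 106 CPM in the INDY libraries, against 142, 148, 145 and 141 CPM in the DMSO libraries. It fell by a similar step with each, -0.33 ± 0.03 with harmine (edgeR adjusted p = 1.56e-07) and -0.36 ± 0.03 with INDY (edgeR adjusted p = 1.92e-08), and neither pair of groups overlapped. COL27A1, a fibrillar chain of cartilage and developing tissues, had 147, 129.9, 140.2 and 139.6 CPM in the harmine libraries, against 153, 149, 153 and 169 CPM in the water libraries. COL27A1 had 131, 132, 134 and 119 CPM in the INDY libraries, against 129, 129, 123 and 126 CPM in the DMSO libraries. The harmine values of COL27A1 lay just under the water values (-0.17 ± 0.04, edgeR adjusted p = 0.00365, and 0.0172 without water replicate 4, 0.0521 without water replicates 1 and 4 or 0.0104 without harmine replicate 2), and INDY and DMSO overlapped (0.03 ± 0.04).

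The remaining fibrillar genes were low. COL3A1, the chain of the reticular fibres of soft tissues, averaged 0.491 CPM with harmine and 1.20 CPM with water (log2 fold change -1.30 ± 0.24, edgeR adjusted p = 0.000131), and 0.316 CPM with INDY and 0.532 CPM with DMSO (-0.75 ± 0.28, which did not pass). COL24A1, a chain found in developing bone and cornea, averaged 0.477 CPM with harmine and 1.19 CPM with water, and 0.236 CPM with INDY and 0.643 CPM with DMSO, and it fell with both (-1.30 ± 0.22, edgeR adjusted p = 5.54e-05, and -1.45 ± 0.26, edgeR adjusted p = 5.50e-05). COL2A1, the main cartilage collagen, averaged 18.13 counts and passed with neither compound (-0.44 ± 0.27 and -0.61 ± 0.29).

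All 8 FACIT genes tested fell with INDY (median log2 fold change -1.12), beside 33.4% of all genes tested. With harmine 2 of the 8 fell and none rose (median -0.32), beside 22.8% and 24.9% of all genes tested. The difference between the compounds passed above 0 for 6 of the 8 FACIT genes, beside 28.1% of all genes tested. The 2 FACIT genes that fell with both compounds were COL12A1 and COL16A1.

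COL12A1, which coats type I fibrils in tendon and bone surfaces, had 145, 140.3, 134 and 135 CPM in the harmine libraries, against 191, 187, 187 and 201 CPM in the water libraries, and 83.5, 79.9, 70.7 and 79.2 CPM in the INDY libraries, against 177, 164, 163 and 154 CPM in the DMSO libraries. Every treated library was below every library of its solvent, by the wider margin with INDY. The log2 fold changes were -0.47 ± 0.05 (edgeR adjusted p = 1.06e-07) and -1.07 ± 0.05 (edgeR adjusted p = 5.04e-13). COL16A1, a chain found with several kinds of fibrils, had 181, 170.3, 179 and 179 CPM in the harmine libraries, against 222, 233, 235 and 253 CPM in the water libraries. COL16A1 had 95.2, 103, 98.7 and 99.1 CPM in the INDY libraries, against 187, 184, 186 and 186 CPM in the DMSO libraries. Its harmine and water groups were apart, as were its INDY and DMSO groups, with log2 fold changes of -0.41 ± 0.03 (edgeR adjusted p = 1.04e-08) and -0.91 ± 0.04 (edgeR adjusted p = 7.61e-14).

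COL22A1, the FACIT of tissue junctions such as that of muscle and tendon, had the highest FACIT level per length. It had 248, 245, 243 and 249 CPM in the harmine libraries, against 195, 236, 240.0 and 197 CPM in the water libraries, and 141, 154, 129 and 143 CPM in the INDY libraries, against 235, 253, 250.4 and 247 CPM in the DMSO libraries. INDY libraries were clear of DMSO (-0.80 ± 0.06, edgeR adjusted p = 8.47e-10). Harmine libraries lay above all water libraries, but water replicates 2 and 3 came within a few CPM, and the value of 0.18 ± 0.06 did not pass (edgeR adjusted p = 0.0154, and 5.71e-05 at 0.31 without those 2 libraries).

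COL20A1, a FACIT described first in chick embryos, had 0.824, 1.07, 1.02 and 0.976 CPM in the harmine libraries, against 1.28, 1.21, 1.22 and 0.894 CPM in the water libraries, which overlapped. The INDY libraries had 0.600, 0.810, 0.466 and 0.641 CPM, against 1.15, 1.89, 1.92 and 1.64 CPM in the DMSO libraries, which did not overlap. COL20A1 fell with INDY by 1.39 ± 0.19 on the log2 scale (edgeR adjusted p = 2.46e-06), and its harmine value was -0.24 ± 0.19 (edgeR adjusted p = 0.283). COL9A2, a chain of the type IX collagen that covers cartilage fibrils, averaged 22.5 ± 0.295 CPM with harmine and 22.8 ± 1.68 CPM with water, and 10.8 ± 1.28 CPM with INDY and 22.1 ± 0.891 CPM with DMSO (SD, n = 4 each). It fell with INDY (-1.04 ± 0.07, edgeR adjusted p = 9.38e-11) and had -0.02 ± 0.06 with harmine.

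The last 3 FACIT genes tested, COL9A3, COL14A1 and COL21A1, averaged 9.38, 7.69 and 10.56 counts. They fell with INDY (-1.17 ± 0.36, -1.82 ± 0.46 and -2.44 ± 0.53 on the log2 scale) and did not pass with harmine. The COL9A3 call was lost in DESeq2 (adjusted p = 0.0241), without the filter on low counts (0.0210) and without any of 5 single libraries (0.0160 to 0.0300) or INDY replicates 2 and 4 (0.0957), and that of COL14A1 without INDY replicates 2 and 4 (-1.56, edgeR adjusted p = 0.0240). With harmine, COL14A1 had -0.79 ± 0.39 (edgeR adjusted p = 0.0919) and passed at -1.34 without water replicates 2 and 3 (edgeR adjusted p = 0.00874).

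Type VI collagen forms beaded microfilaments around cells, from an α1, an α2 and usually an α3 chain. COL6A1 had 1438, 1460.5, 1447 and 1486 CPM in the harmine libraries, against 1160.1, 1214, 1198 and 1184 CPM in the water libraries, and 1125, 1023, 1176 and 1027 CPM in the INDY libraries, against 1194, 1200.2, 1169 and 1191 CPM in the DMSO libraries. It rose with harmine without overlap (0.29 ± 0.04, edgeR adjusted p = 1.21e-06). With INDY it passed at -0.13 ± 0.04 (edgeR adjusted p = 0.00351), but INDY replicate 3 lay within the DMSO range and the call was lost without INDY replicate 2 or 4 (edgeR adjusted p = 0.0258 or 0.0249), with a value of -0.04 without both.

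COL6A3 had 2039.9, 2045, 1914 and 1975 CPM in the harmine libraries, against 1588, 1856, 1792 and 1591 CPM in the water libraries. It had 1472, 1419.5, 1245 and 1410.3 CPM in the INDY libraries, against 1876, 1832, 1874 and 1769.7 CPM in the DMSO libraries. Groups did not overlap with either compound, though water replicates 2 and 3 came close to the harmine libraries. The log2 fold changes were 0.22 ± 0.05 with harmine (edgeR adjusted p = 0.00104, and 0.0445 at 0.13 without water replicates 1 and 4) and -0.41 ± 0.05 with INDY (edgeR adjusted p = 8.73e-07).

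COL6A2 had 1031, 1113, 1104.5 and 1156.5 CPM in the harmine libraries, against 979, 1090.2, 1085 and 993 CPM in the water libraries, and 1038, 1058, 1076.5 and 1004 CPM in the INDY libraries, against 1171, 1199, 1167 and 1163 CPM in the DMSO libraries. Harmine and water overlapped (0.09 ± 0.04, edgeR adjusted p = 0.0601, and 0.00630 at 0.14 without water replicates 2 and 3), and INDY lay below DMSO (-0.17 ± 0.04, edgeR adjusted p = 0.000576). The type VI genes COL6A5 and COL6A6, whose chains can take the place of α3, were at most 1.51 CPM and fell with both compounds. In the INDY libraries COL6A5 had 5, 7, 10 and 4 counts and COL6A6 had 9, 4, 6 and 6, near the limit of 3 counts. COL6A5 had 0.412, 0.226, 0.451 and 0.358 CPM in the harmine libraries, against 1.5, 1.49, 1.30 and 1.30 CPM in the water libraries, and 0.100, 0.132, 0.161 and 0.0855 CPM in the INDY libraries, against 1.06, 1.51, 1.18 and 1.16 CPM in the DMSO libraries. All treated COL6A5 libraries were below all solvent libraries (-1.95 ± 0.19 with harmine, edgeR adjusted p = 7.98e-08, and -3.30 ± 0.23 with INDY, edgeR adjusted p = 2.55e-10). COL6A6 had -0.81 ± 0.19 with harmine (edgeR adjusted p = 0.00151, and 0.0661 at -0.51 without water replicates 2 and 3) and -2.71 ± 0.27 with INDY (edgeR adjusted p = 2.79e-08).

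Among the transmembrane genes, 1 of the 3 tested rose and 1 fell with harmine, beside 24.9% and 22.8% of all genes tested. With INDY 2 of the 3 fell, beside 33.4% of all genes tested. COL13A1, a collagen of cell adhesion sites and the neuromuscular junction, had 75.1, 73.0, 73.7 and 71.5 CPM in the harmine libraries, against 40.2, 52.0, 55.3 and 39.2 CPM in the water libraries. It had 22.0, 30.5, 19.8 and 26.2 CPM in the INDY libraries, against 41.1, 47.2, 43.6 and 45.4 CPM in the DMSO libraries. COL13A1 was above water in every harmine library and below DMSO in every INDY library (0.65 ± 0.11, edgeR adjusted p = 4.81e-05, and -0.85 ± 0.11, edgeR adjusted p = 1.96e-06).

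COL17A1, a hemidesmosome component of skin, had 8.81, 7.96, 7.89 and 8.22 CPM in the harmine libraries, against 10.6, 12, 11.8 and 10.6 CPM in the water libraries, and 4.28, 6.78, 4.03 and 5.79 CPM in the INDY libraries, against 10.6, 9.94, 11 and 10.7 CPM in the DMSO libraries. It fell with both, without overlap (-0.45 ± 0.11, edgeR adjusted p = 0.00162, and 0.0255 without water replicates 2 and 3, and -1.02 ± 0.11, edgeR adjusted p = 1.74e-07). COL25A1, known from amyloid plaques of the brain, averaged 19.25 counts and had 1.04 ± 0.35 with harmine (edgeR adjusted p = 0.0167, and 0.00513 without water replicate 3 or 0.00843 without water replicates 2 and 3) and -0.11 ± 0.38 with INDY. COL23A1, also a membrane collagen, had 0, 0, 1 and 1 counts in the harmine libraries, against 2, 4, 5 and 6 in the water libraries, and 0 in each INDY library, against 2, 3, 1 and 1 in the DMSO libraries, which lie around the limit of 3 counts that a count of 0 allows.

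The multiplexins are basement membrane collagens whose C-terminal ends can be released as fragments such as endostatin from COL18A1. COL18A1 had 7.60, 7.75, 7.0 and 8.20 CPM in the harmine libraries, against 8.63, 9.43, 8.91 and 8.90 CPM in the water libraries, and 4.98, 4.77, 3.76 and 5.02 CPM in the INDY libraries, against 9.86, 11.5, 10.8 and 10.7 CPM in the DMSO libraries. INDY libraries were far below DMSO (-1.21 ± 0.08, edgeR adjusted p = 1.23e-10), and harmine libraries lay just under water (-0.23 ± 0.08, edgeR adjusted p = 0.0157, and 0.00909 without harmine replicate 4). COL15A1 had 0.870, 0.451, 0.471 and 0.259 CPM in the harmine libraries, against 1.5, 1.24, 1.22 and 1.14 CPM in the water libraries, and 0.280, 0.433, 0.353 and 0.855 CPM in the INDY libraries, against 0.845, 0.895, 0.787 and 0.883 CPM in the DMSO libraries. COL15A1 fell with harmine (-1.33 ± 0.29, edgeR adjusted p = 0.000605), and its INDY value of -0.85 ± 0.30 did not pass (edgeR adjusted p = 0.0162), where replicate 4 alone reached the DMSO range. Without that library COL15A1 passed at -1.24 (edgeR adjusted p = 0.000642), and without INDY replicates 2 and 4 at -1.40 (0.000869).

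COL7A1, the chain of the anchoring fibrils that hold epidermis to dermis, rose with both compounds. It had 139.8, 122.5, 145 and 138 CPM in the harmine libraries, against 102, 100.1, 107 and 119.6 CPM in the water libraries, and 152, 150.4, 174 and 135 CPM in the INDY libraries, against 89.8, 93.7, 86.1 and 91.8 CPM in the DMSO libraries. The treated libraries were above their solvent libraries in both cases, by the wider margin with INDY. The log2 fold changes were 0.35 ± 0.07 (edgeR adjusted p = 0.000215) and 0.76 ± 0.07 (edgeR adjusted p = 7.48e-09), and their difference passed (-0.41 ± 0.10, edgeR adjusted p = 0.000959).

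COL26A1 and COL28A1, which belong to none of these classes, were below 1.21 CPM in every library. COL26A1, first found in testis and ovary, had 0.664, 0.715, 0.667 and 0.478 CPM in the harmine libraries, against 0.894, 0.900, 0.983 and 0.754 CPM in the water libraries, and 0.360, 0.584, 0.514 and 0.769 CPM in the INDY libraries, against 1.12, 1.17, 1.20 and 0.947 CPM in the DMSO libraries. COL28A1, a collagen with von Willebrand factor A domains, had 0.275, 0.282, 0.255 and 0.259 CPM in the harmine libraries, against 0.330, 0.372, 0.209 and 0.473 CPM in the water libraries, and 0.100, 0.170, 0.0482 and 0.0641 CPM in the INDY libraries, against 0.406, 0.259, 0.342 and 0.366 CPM in the DMSO libraries. Only the harmine and water values of COL28A1 overlapped. Both genes fell with INDY (-1.0 ± 0.19, edgeR adjusted p = 0.000103, and -1.84 ± 0.35, edgeR adjusted p = 9.66e-05) and neither passed with harmine (-0.49 ± 0.19 and -0.36 ± 0.29).

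Chains that share a trimer need not change in step, so the ratio of the counts of 2 chains was compared per library for pairs that assemble together. The log2 ratio used a pseudocount of 0.5 counts and an exact two-sided permutation test of 4 against 4 libraries, whose smallest possible p is 0.0286, with p-values adjusted over the 12 tests made on 6 ratios. All 10 ratios whose groups did not overlap reached that smallest p, adjusted to 0.0343. Full separation of 4 against 4 libraries always gives this p, so it adds nothing to the lack of overlap. Of all genes tested, 47.7% passed with harmine and 66.6% with INDY, so ratios of unrelated genes may also separate. Ratios of other gene pairs were not counted, so whether 10 of 12 is unusual was not tested.

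The COL4A1/COL4A2 ratio was -1.44 ± 0.03 with harmine and -1.56 ± 0.05 with water, and -0.84 ± 0.05 with INDY and -1.49 ± 0.01 with DMSO (log2, mean ± SD, n = 4 each; exact permutation p = 0.0286 for both compounds). It was thus shifted towards COL4A1 by 0.12 with harmine and by 0.65 with INDY, so COL4A2 fell further than COL4A1 with INDY. These are the genes whose overlapping promoter windows are printed above. In counts, COL4A1 reached 0.560 of COL4A2 with INDY and 0.357 with DMSO.

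The COL5A1/COL5A2 ratio moved in opposite directions, to 3.78 ± 0.04 with harmine, against 2.80 ± 0.06 with water, and to 2.71 ± 0.09 with INDY, against 3.12 ± 0.02 with DMSO. COL5A1 counts were 13.7 times those of COL5A2 with harmine and 6.96 times with water, and 6.55 times with INDY and 8.68 times with DMSO. The COL8A1/COL8A2 ratio was 3.73 ± 0.08 with harmine and 2.64 ± 0.10 with water, and 4.43 ± 0.14 with INDY and 2.75 ± 0.27 with DMSO, higher with both compounds. With INDY its difference of 1.67 rested on 9 to 11 counts of COL8A2, and it was 1.25 with a pseudocount of 5 counts.

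Within type VI, COL6A1/COL6A2 was 0.41 ± 0.05 with harmine and 0.20 ± 0.06 with water, while 0.06 ± 0.08 with INDY and 0.02 ± 0.02 with DMSO overlapped (exact permutation p = 0.343). COL6A3/COL6A1 was 0.45 ± 0.05 with harmine and 0.52 ± 0.09 with water, which overlapped (exact permutation p = 0.286), and 0.35 ± 0.18 with INDY and 0.63 ± 0.05 with DMSO, which did not. COL11A1/COL5A1, the relatives that can share mixed type V/XI trimers, was shifted away from COL11A1 by both compounds, to -2.01 ± 0.06 with harmine, against -0.94 ± 0.12 with water, and to -3.88 ± 0.12 with INDY, against -1.47 ± 0.05 with DMSO. COL1A1/COL1A2 was not tested because COL1A2 did not pass the filter.

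**Figure D5:**
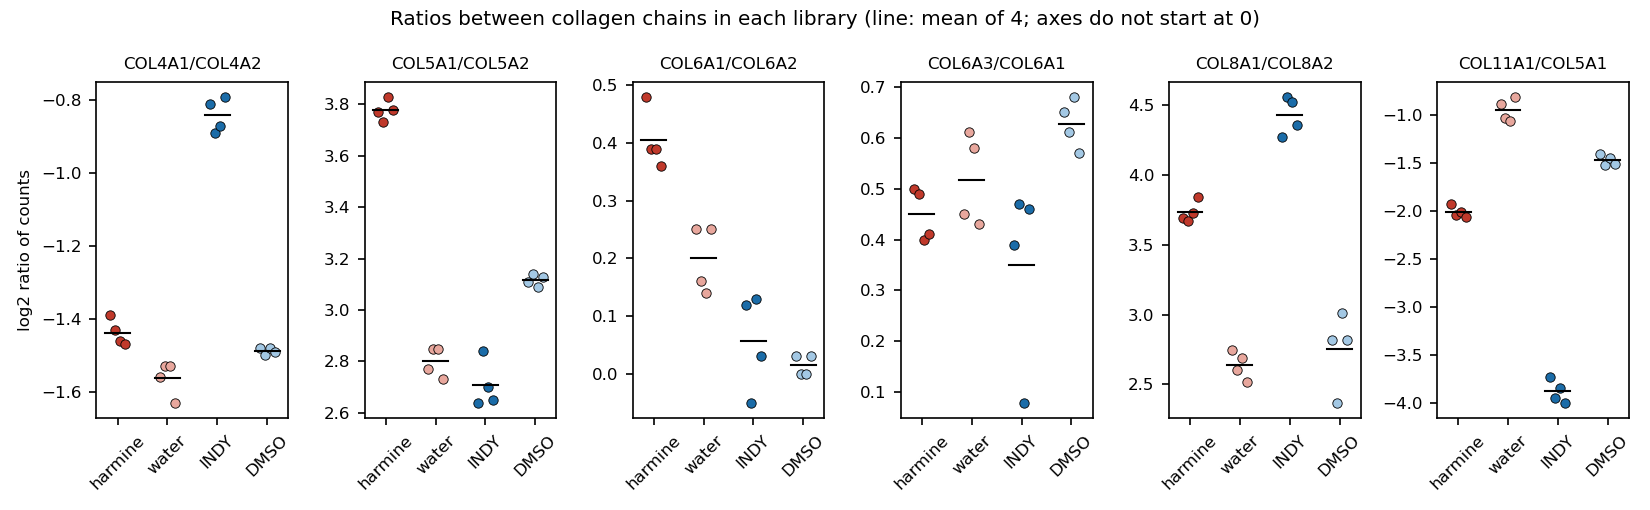
Log2 ratio of the counts of 2 collagen chains in each library, from left to right harmine, water, INDY and DMSO, with the mean of the 4 libraries as a line. The COL4A1/COL4A2 ratio stands near -0.8 only in INDY libraries, COL5A1/COL5A2 near 3.8 only in harmine libraries, and COL11A1/COL5A1 falls below its solvent with both compounds.

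Collagens are folded and modified in the endoplasmic reticulum, exported in large carriers, trimmed outside the cell and cross-linked, and these steps need their own enzymes. Of 25 genes of folding and secretion, all tested, 4 rose and 11 fell with harmine (median log2 fold change -0.10), and 4 rose and 17 fell with INDY (median -0.35). Over all genes tested, 24.9% rose and 22.8% fell with harmine (median 0.02), and 33.2% rose and 33.4% fell with INDY (median -0.01). The called genes with the largest changes with harmine were PLOD2, the lysyl hydroxylase of telopeptides (-0.92 ± 0.04, edgeR adjusted p = 8.14e-13), CREB3L1, a transcription factor of collagen-secreting osteoblasts (-0.71 ± 0.05, edgeR adjusted p = 1.89e-09), and COLGALT2, a collagen galactosyltransferase (0.70 ± 0.15, edgeR adjusted p = 0.000575, and 0.0103 without water replicates 1 and 4). With INDY they were the prolyl 3-hydroxylase gene P3H2 (-1.36 ± 0.13, edgeR adjusted p = 1.33e-08), COLGALT2 (-1.08 ± 0.17, edgeR adjusted p = 1.84e-05) and P3H3 (-1.08 ± 0.05, edgeR adjusted p = 1.99e-13), which belongs to the same family as P3H2. COLGALT2 averaged 1.43 CPM with harmine and 0.879 CPM with water, and 0.401 CPM with INDY and 0.844 CPM with DMSO.

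Of 18 genes of processing and cross-linking, 15 were tested. With harmine 4 rose and 8 fell (median -0.23), and with INDY none rose and 11 fell (median -0.60), where all genes tested had 24.9% rising and 22.8% falling for harmine, and 33.2% rising and 33.4% falling for INDY. The calls of ADAMTS2 with harmine and of TLL2 and LOXL2 with INDY were lost without any of several single libraries. BMP1 and ADAMTS2 gained a fall with INDY under some alternatives. LOXL1, a lysyl oxidase that cross-links elastin and collagen, averaged 16.7 ± 0.914 CPM with harmine and 7.54 ± 0.471 CPM with water (log2 fold change 1.15 ± 0.07, edgeR adjusted p = 3.14e-10). LOXL4, another lysyl oxidase, averaged 36.0 ± 1.15 CPM with harmine and 155 ± 99 CPM with water (-2.11 ± 0.42, edgeR adjusted p = 0.000316), and without water replicates 1 and 4 the value was -1.14 and did not pass (edgeR adjusted p = 0.0220). TLL1, which trims procollagen ends, fell with harmine (-1.28 ± 0.21, edgeR adjusted p = 4.70e-05) and with INDY (-1.81 ± 0.25, edgeR adjusted p = 3.18e-06). With INDY, PCOLCE2, an enhancer of that trimming, averaged 5.96 ± 1.08 CPM, against 21.3 ± 1.12 CPM with DMSO (-1.85 ± 0.09, edgeR adjusted p = 7.79e-13), and the lysyl oxidase LOX averaged 3.06 ± 0.652 CPM, against 8.42 ± 0.847 CPM (-1.47 ± 0.12, edgeR adjusted p = 1.38e-09).

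Of 10 collagen receptors, 8 were tested. With harmine 1 rose and 2 fell (median 0.03), beside 24.9% and 22.8% of all genes tested. With INDY 2 rose and 6 fell (median -0.71), beside 33.2% and 33.4% of all genes tested. The integrin gene ITGA2 rose with harmine (0.39 ± 0.06, edgeR adjusted p = 9.70e-06), while the receptor tyrosine kinase genes DDR2 and DDR1 fell (-0.45 ± 0.07, edgeR adjusted p = 2.87e-05, and -0.11 ± 0.03, edgeR adjusted p = 0.00158, and 0.0153 without water replicates 1 and 4). With INDY the largest changes were those of the integrin genes ITGA10 (1.56 ± 0.15, edgeR adjusted p = 3.13e-08) and ITGA11 (-1.46 ± 0.20, edgeR adjusted p = 2.30e-06) and of DDR2 (-1.45 ± 0.08, edgeR adjusted p = 3.42e-12).

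The solvents themselves differed for a few collagen genes. Against water, DMSO libraries had 1 collagen gene higher and 6 lower of 39, with 1.58% of all genes tested higher and 2.71% lower, and a median log2 fold change of -0.10 over the collagen genes. COL6A2 was higher in DMSO (0.18 ± 0.04, edgeR adjusted p = 0.00571). Lower in DMSO were COL11A1 (-0.38 ± 0.04, edgeR adjusted p = 2.29e-05), COL16A1 (-0.34 ± 0.03, edgeR adjusted p = 1.85e-05), COL27A1 (-0.30 ± 0.04, edgeR adjusted p = 0.000403), COL12A1 (-0.22 ± 0.05), COL5A2 (-0.18 ± 0.04) and COL3A1 (-1.16 ± 0.23). Without water replicates 1 and 4 the counts were 0 higher and 2 lower, and without water replicates 2 and 3 they were 5 higher and 6 lower. The calls lost without replicates 1 and 4 were those of COL6A2 (edgeR adjusted p = 0.165), COL12A1 (0.134), COL3A1 (0.106), COL5A2 (0.0261) and COL27A1 (0.0132). Without replicates 2 and 3, COL5A2 did not pass (edgeR adjusted p = 0.068), and COL4A1 (0.00186), COL5A1 (0.000363), COL6A3 (0.008), COL22A1 (0.000312) and COL24A1 (0.00625) passed. Leaving out any of several single libraries also lost the COL6A2, COL12A1, COL3A1 and COL5A2 calls. Each compound was set against its own solvent throughout.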

How the data were processed

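Per the labels and the study's methods, stranded poly(A) libraries were quantified by the authors with Salmon 1.1 (GENCODE 37, the GRCh38 assembly serving as decoy sequence), and tximport gave gene-level sums. The deposited values are estimated counts per gene, without normalization, and 27.7% to 31.9% of the values in a library were not whole, so they were rounded. All 16 columns were used and 0 columns of other samples were left out. Genes were kept by filterByExpr (minimum count 10), which left 20446, and were fitted over the 4 groups with edgeR 4.0.16 in R 4.3.3 (TMM factors 0.982 to 1.022, quasi-likelihood test, Benjamini-Hochberg adjustment over all genes tested, threshold 0.01). The tests were tested on simulated data. CPM used TMM-scaled library sizes and RPKM used transcript lengths of GENCODE 44, in which 43 members matched by identifier and COL11A2 by symbol. The limit of 3 counts behind a count of 0 covers counting error only. Replicate numbers were not taken to pair the libraries.

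The members, their classes, the related gene lists and the marker lists were chosen with earlier results of these data known. Values in every library were given for the 2 members of each class with the highest mean CPM and the 2 called members with the largest log2 fold change and a mean of at least 1 CPM. COL1A1, COL1A2, COL5A2, COL5A3, COL6A2, COL6A5, COL8A1 and COL23A1 were added after their values were seen. Promoters are printed for 1 of the 3 head-to-head pairs. Of the related lists, the 3 called genes with the largest change were named, or every called gene where 5 or fewer were called. Alternatives were DESeq2 1.42.0, other scaling factors, other filters and thresholds, the 8 libraries of a comparison alone, a replicate block, and each library left out. Leaving out pairs of libraries that stood apart was chosen after seeing the data.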

Additional observations from a re-analysis of the deposited data

Results flagged for a closer look

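In 132 groups of 4 values (27 collagen genes in CPM and 6 chain ratios, in each of the 4 groups), 2 had a library far from the other 3, where chance would mark about 1 in 20. COL16A1 had 170.28 CPM in harmine replicate 2, against 179.17 to 180.61 CPM in the other harmine libraries, a gap of 0.860 of the group's range. COL5A3 had 47.789 CPM in DMSO replicate 1, against 41.195 to 41.88 CPM in the other DMSO libraries, a gap of 0.896 of the range.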

How the results depend on the processing

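No collagen gene changed sign with a call under any alternative. With at least a 1.5-fold change required, 4 collagen genes rose and 8 fell with harmine. With INDY the falls of COL1A1 (-0.36), COL4A5 (-0.36), COL6A1 (-0.13), COL6A2 (-0.17) and COL6A3 (-0.41) were smaller than 1.5-fold. No share of all genes tested at this minimum is given here, so whether such counts are unusual was not tested. For DMSO against water, the counts higher and lower were 3 and 11 at an adjusted p under 0.05, 0 and 1 with the 1.5-fold minimum, and 2 higher in DESeq2. Without water replicates 1 and 4 they were 0 and 2, and without water replicates 2 and 3 there were 5 higher. With each library left out in turn, counts ranged from 8 to 10 higher and 12 to 14 lower with harmine, 2 to 2 higher and 28 to 30 lower with INDY, 22 to 25 above and 3 to 4 below 0 for the difference, and 0 to 2 higher and 3 to 6 lower for DMSO against water. The log2 difference in COL8A1/COL8A2 with INDY was 1.25 with a pseudocount of 5 counts, and 1.55 to 1.76 with a library left out. The causes were not tested. The call of each gene, or its lack of one, at an adjusted p under 0.01 was followed under every alternative except the changed thresholds. It held for 28 of 39 genes with harmine, 34 with INDY, 32 for the difference and 27 for DMSO against water. With a replicate block, 10 rose and 13 fell with harmine and 2 rose and 29 fell with INDY, 23 were above and 3 below 0 for the difference, and 1 was higher and 5 lower in DMSO. Same-numbered libraries correlated at -0.05 to 0.09 after removal of group means, so the numbers were not taken to pair samples. Chain ratios without a library or with the block are values with no test, since 3 against 4 cannot go below 0.0571 and 4 pairs not below 0.125. DESeq2 scaling moved the median log2 fold change of all genes by at most 0.02. Depth limits the 7 genes under a mean of 10 counts, where a fold change cannot be resolved well.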
